A study of Mus musculus with 8 samples.

Results

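The response of wild-type (WT) regulatory T (Treg) cells to stimulation through the T cell receptor (TCR) and CD28 was measured by RNA sequencing of 4 libraries, out of 8 in the series. The stimulated group held 2 libraries, WT replicates 1 and 2, from cells kept for 16 h with plate-bound antibodies to CD3 and CD28 at 1 ug/ml. The unstimulated group held 2 other libraries, WT replicates 3 and 4. The libraries were chosen by these labels alone, and the response was described over the 15419 of 52459 listed genes that had a mean of at least 10 normalized counts over the 8 libraries. Normalized counts are reads on a gene divided by 1 size factor for each library.

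All cells came from spleen and lymph nodes of female C57BL/6 mice heterozygous for Foxp3-YFPcre, a Cre recombinase driven from the X-linked Foxp3 locus, with both Stim1 and both Stim2 alleles floxed. Cells of several mice were pooled for each sample. WT cells were sorted as CD4+CD25hi and negative for YFPcre, so they carried the floxed alleles and lived beside Cre-expressing Treg cells in the same animals. Their gate held no reporter of Foxp3, although the labels call them Foxp3+CD25+ Treg cells. The other 4 libraries are labelled Stim1/2-deficient (YFPcre+), with and without the same stimulation. Ages were not given in the sources used here, nor was it stated that unstimulated cells had been cultured. Unstimulated libraries were read in lane 4 and stimulated libraries in lane 1, so stimulation, time in culture and lane cannot be told apart. No source says that replicates were sorted on separate days, and p-values measure the spread between these libraries, which may be technical.

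Treg cells are CD4+ T cells that hold other lymphocytes in check and depend on the transcription factor Foxp3 and on interleukin-2 (IL-2), which they bind through the high-affinity receptor chain Il2ra. Engagement of the TCR and CD28 opens store-operated calcium entry through STIM and ORAI proteins and activates NFAT, AP-1 and NF-kB. Immediate early genes rise and decay soon after such a signal, whereas growth genes, receptors and cytokines follow over hours as a resting T cell enlarges and prepares to divide.

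The WT libraries held 11851853 to 16306540 reads on genes. Mitochondrial ribosomal RNA (mt-Rnr1 and mt-Rnr2) took 26.5% and 26.7% of the counts in unstimulated libraries and 17.9% and 18.4% in stimulated ones. The sum of normalized counts was 17597277 and 17507440 without stimulation and 12113314 and 12363815 after it, since the size factors do not set equal totals. Replicates correlated at r = 0.979 (unstimulated) and 0.960 (stimulated) over log2 values of the tested genes, and libraries of different groups at 0.889 to 0.898, which are descriptions across genes. The first principal component of the 4 libraries held 74.2% of the variance and separated the groups.

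Treg identity genes matched the label in all 4 libraries. Foxp3 had 10001 and 8159 normalized counts without stimulation and 8525 and 11918 after it, and Ikzf2 (Helios) had 18953 and 19707 against 18887 and 20751. Both groups overlapped for these genes, and neither was called (log2 fold changes 0.16 and 0.03, limma adjusted p = 0.689 and 0.911). The CD3 chain Cd3e had 2669 to 3424 normalized counts, whereas markers of other cells were low. Summed over 15 B cell markers, with H2-Aa and Cd74 among them, the libraries held 1530.0 to 3745 normalized counts, and over 14 myeloid markers 202 to 476. Stimulated replicate 1 stood apart in these lists: it had 263 normalized counts of the B cell gene Ms4a1 against 19.0 in stimulated replicate 2, 220 of Cd8a against 15.9, and 435 of Gzma against 47.8, and its 10 CD8 T and NK cell markers summed to 1471 against 527 to 619.6 in the other WT libraries. Of the 15 B cell and 10 CD8 T and NK cell markers, 0 were called between the groups by limma, edgeR or DESeq2, and 0 had an unadjusted p under 0.05. By limma 2 of 12 tested myeloid markers (16.7%) and 1 of 7 neutrophil markers (14.3%) were called lower, against 13.1% of all tested genes. Of 3 tested erythroid markers 1 was called higher, against 10.2% of all tested genes. Fewer cells of a type and less RNA per cell cannot be told apart in such bulk samples.

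After stimulation 1580 genes were called higher, 10.2% of those tested, and 2013 were called lower, 13.1% of those tested. A call required an adjusted p under 0.05 and a change over 1.5-fold in limma, fitted to log2(normalized counts + 1) with p adjusted over all 15419 genes by the method of Benjamini and Hochberg, and every fold change here is on that scale. Among called genes 319 were higher and 570 lower by over 4-fold, and 104 were higher and 240 lower by over 8-fold. Called genes had stimulated libraries on one side of both unstimulated ones in 1580 of 1580 and 2013 of 2013 cases, which such a call nearly requires. Over all tested genes both stimulated libraries lay above both unstimulated ones in 35.0% and below them in 36.0%. In unstimulated cells the genes that fell had a median level of 920 normalized counts. The genes that rose had 135 and those not called 115. In stimulated cells these medians were 341, 355 and 124, and the choice of genes by direction sets part of such gaps. Together the genes that fell summed to 6394136 and 6461380 normalized counts without stimulation and 2730781 and 2810930 after it, and the genes that rose to 568794 and 528010 against 1210303 and 1242420.

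Leaving out any 1 of the 4 WT libraries left 344 to 505 genes called higher and 580 to 843 called lower, while 3538 to 3555 of the 3593 called genes stayed over 1.5-fold the same way. Counts of most gene lists fell likewise, and the range over these 4 fits is given for some of them. A count given without a range is not thereby stable. The balance of the directions depended on the scale. Over all tested genes the median change on the log2 scale was 0.01 with the deposited size factors and 0.52 when libraries were rescaled to equal totals, which gave 4258 higher and 974 lower calls, or 18.6% lower calls in place of 56.0%. Without mitochondrially encoded genes in those totals the median was 0.36, with 2913 higher and 1208 lower calls. Gene lists are therefore given as counts and medians beside the medians of all tested genes, 0.01 as deposited and 0.52 at equal totals.

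**Figure D1:**
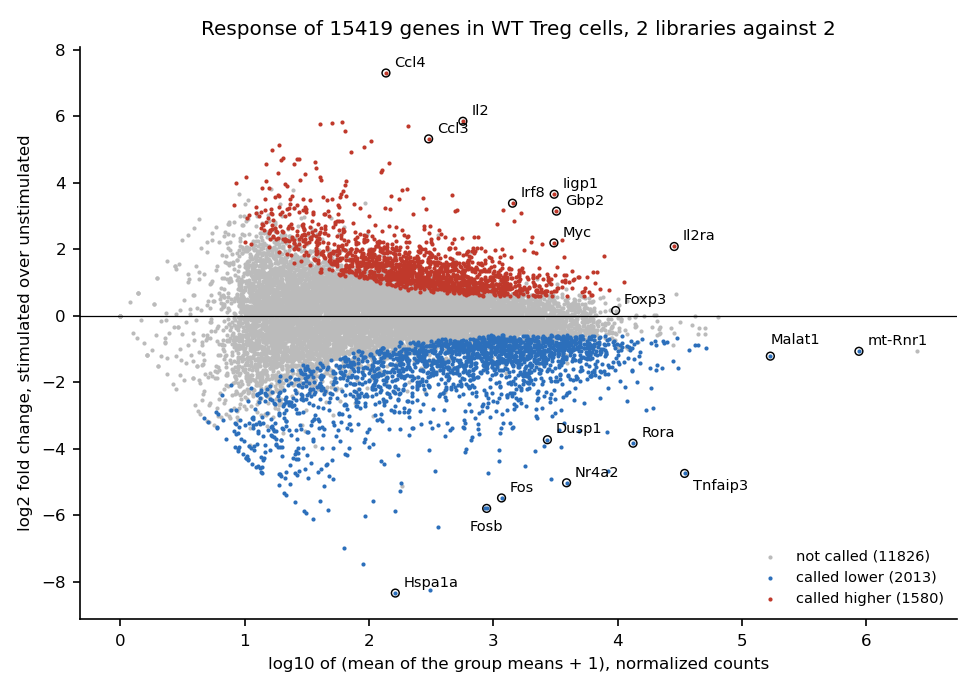
Log2 fold change of each of 15419 tested genes, stimulated over unstimulated WT Treg cells (vertical axis), against log10 of the mean level plus 1 in normalized counts (horizontal axis), with genes called higher in red, called lower in blue and the rest in grey. Fos, Fosb, Nr4a2, Tnfaip3 and Hspa1a lie far below 0, Ccl4 and Il2 lie at the top, and Foxp3 lies near 0.

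Immediate early genes had the lowest median of the pathway lists. Of 24 tested members of the list of immediate early, EGR and NR4A genes, 16 were called lower and 2 higher, with a median log2 fold change of -1.90 (-1.38 at equal totals). Fos, a subunit of AP-1, had 2211 and 2341 normalized counts without stimulation and 73.3 and 34.2 after it, a log2 fold change of -5.48 (SE 0.35, limma adjusted p = 7.07e-05). Fosb, its close relative, had 1789 and 1685 against 30.4 and 30.4 (log2 fold change -5.79). The stimulated libraries lay far below the unstimulated ones for both genes. Fosl2, Jun and Junb, which also encode AP-1 subunits, had log2 fold changes of -2.84, -1.78 and -2.30. Klf4, a zinc finger factor tied to quiescence, had 1883 and 1501 normalized counts against 39.8 and 22.0 (log2 fold change -5.78, SE 0.39), and Klf6 had 12327 and 11937 against 2338 and 2071.

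The NR4A nuclear receptors, often read as reporters of recent TCR signalling, did not move alike. Nr4a2 had 7056 and 8030.0 normalized counts without stimulation and 268 and 199 after it (log2 fold change -5.02, SE 0.60, limma adjusted p = 0.000904), and Nr4a1 had 3802 and 3748 against 737 and 853 (log2 fold change -2.25). Nr4a3 had 13090.1 and 14694 against 6216 and 7635 and was not called (limma adjusted p = 0.297). The 2 members that rose were EGR factors, which follow calcium and ERK signals: Egr2 had 253 and 230.4 normalized counts against 1376 and 1145 (log2 fold change 2.37, SE 0.24), and Egr3 had 364 and 400.3 against 745 and 719.8. Egr1 overlapped between groups, with 1754 and 1866 against 1613 and 2239.9.

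Windows before the starts of 3 genes that fell together are shown because they carry letters read by factors of this pathway. The windows are the 250 bases before the start that RefSeq lists first on GRCm38.p6, written 5′ to 3′ along the gene. Capitals mark matches, on either strand, to TGACGT (core of the cAMP response element, CRE, and part of its full form TGACGTCA), TGANTCA (AP-1), CACGTG (E-box), GGAAAA (NFAT core), TTTCNNTTTC (interferon-stimulated response element, ISRE), and the NF-kB and CArG box motifs. Fos lies at chr12:85473640-85473889 on the plus strand, Dusp1 at chr17:26508473-26508722 on the minus strand and Tnfaip3 at chr10:19015411-19015660 on the minus strand.
Fos: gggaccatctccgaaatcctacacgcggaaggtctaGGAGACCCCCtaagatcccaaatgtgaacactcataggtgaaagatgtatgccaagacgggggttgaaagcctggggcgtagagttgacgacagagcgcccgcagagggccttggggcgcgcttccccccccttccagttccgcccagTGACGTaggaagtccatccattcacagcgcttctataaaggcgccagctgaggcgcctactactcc
Dusp1: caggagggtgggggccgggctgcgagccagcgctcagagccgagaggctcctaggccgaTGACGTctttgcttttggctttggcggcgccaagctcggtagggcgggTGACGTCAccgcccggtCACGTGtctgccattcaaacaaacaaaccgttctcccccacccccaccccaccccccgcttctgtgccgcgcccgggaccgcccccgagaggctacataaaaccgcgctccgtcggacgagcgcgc
Tnfaip3: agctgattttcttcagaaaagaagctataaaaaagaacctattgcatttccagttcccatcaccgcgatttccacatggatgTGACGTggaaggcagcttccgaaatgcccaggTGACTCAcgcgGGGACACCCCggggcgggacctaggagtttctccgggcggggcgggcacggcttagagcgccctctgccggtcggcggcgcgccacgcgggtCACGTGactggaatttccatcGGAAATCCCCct
The CRE core stands in 6.56% of 27025 promoters of this length, the AP-1 motif in 6.87%, the E-box in 6.05% and the NF-kB motif in 3.75%. Among 20 members of the immediate early list with a window, 5 hold the CRE core and 4 the NF-kB motif. A match is a run of letters and not a measured site, and over all genes called lower the CRE core stands in 11.9% of 1362 windows, against 10.4% of 9882 windows of tested genes.

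Feedback phosphatases of the MAP kinases followed the immediate early genes. Of 17 tested members of the DUSP and Sprouty list, 9 were called lower and 3 higher (median log2 fold change -1.61, -1.09 at equal totals), and 2 to 3 lower with a WT library left out. Dusp1, whose phosphatase switches off p38 and JNK, had 5488 and 4653 normalized counts without stimulation and 376 and 386 after it (log2 fold change -3.73, SE 0.19, limma adjusted p = 1.65e-05). Dusp10, which acts on the same kinases, had 6066 and 5254 against 234 and 152, and Dusp4 had 6389 and 5206 against 1339.8 and 1473. The mRNA-decay factor Zfp36 (tristetraprolin) fell by 2.46 on the log2 scale.

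Inhibitors of NF-kB fell as well. In the NF-kB list 9 of 25 tested genes were called lower and 1 higher, with a median of -0.77 (-0.25 at equal totals). Tnfaip3 (A20), a ubiquitin-editing brake on NF-kB, had 66279 and 67129 normalized counts in unstimulated libraries and 2964 and 2102 in stimulated ones (log2 fold change -4.74, SE 0.36, limma adjusted p = 0.000118). Among protein-coding genes called, it lost the most normalized counts. Nfkbia and Nfkbie, which hold NF-kB in the cytosol, had log2 fold changes of -1.89 and -2.46, and Tnip1, a partner of A20, of -1.85. Rel (c-Rel), the NF-kB subunit most tied to Treg cells, had 28959 and 32216 normalized counts against 6611 and 6992 (log2 fold change -2.17). Tnip3 was the member called higher, with 52.9 and 51.7 against 210.4 and 237.

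The HSP70 heat shock genes Hspa1a and Hspa1b and some regulators of signalling were near 0 after stimulation. Hspa1a had 289 and 359 normalized counts in unstimulated libraries and no read in stimulated ones, at least 139-fold lower against a floor of 3 reads in a library. Hspa1b, a near-identical copy whose reads the counting could not fully separate from Hspa1a, had 271 and 363 against 7.79 and 2.28. Dnaja1, an HSP40 cochaperone, fell by 1.62 on the log2 scale. Of 23 tested cytosolic and mitochondrial chaperones 10 were called higher and 3 lower (18 and 1 at equal totals), but only 0 to 2 were called higher with a WT library left out, 0 without unstimulated replicate 4 or stimulated replicate 2. Those called higher included the mitochondrial chaperonin Hspd1, with 3057 and 2857 normalized counts against 7035 and 6178.

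The remaining genes with the largest decreases were regulators outside these lists. Hey1, a repressor downstream of Notch, had 695 and 535 normalized counts without stimulation and 0 and 3.04 after it. Apol8 had 153 and 202 and Gpr3, a receptor that raises cAMP, 128 and 121, both with no read after stimulation, at least 76.1-fold and 53.4-fold lower. Epas1 (HIF-2a) had 330.2 and 355 against 15.6 and 3.80, Ramp3, a partner of calcitonin-family receptors, 332 and 372 against 7.01 and 13.7, and Stum 594 and 826 against 7.01 and 8.35. No unstimulated library came near a stimulated one in these 6 genes, which their choice as largest decreases with groups apart nearly requires.

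**Figure D2:**
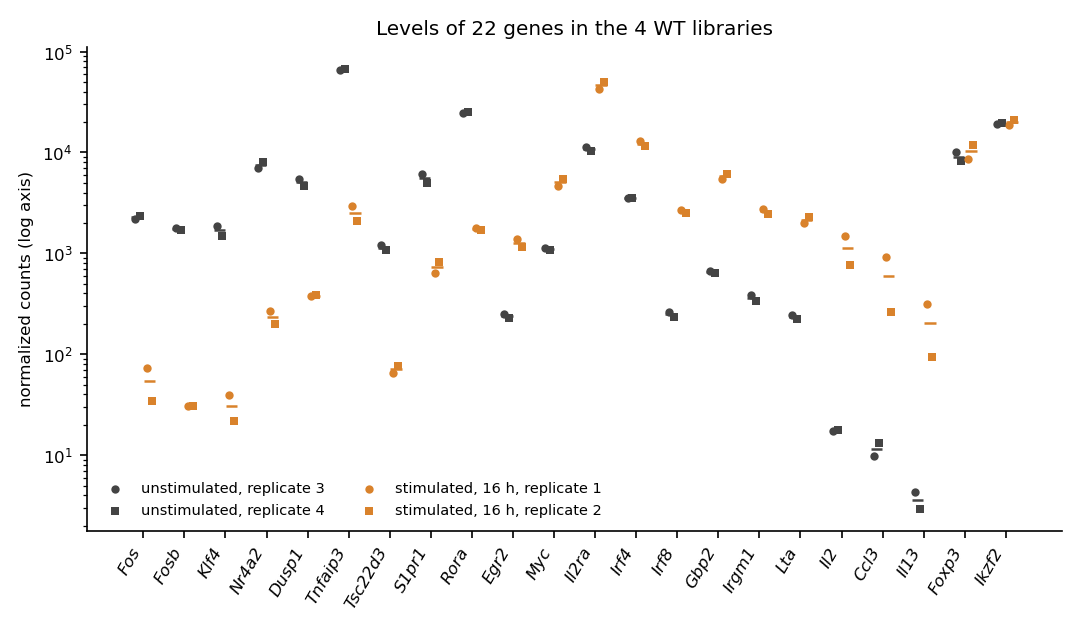
Normalized counts (log axis) of 22 genes in the 4 WT libraries, with unstimulated libraries in grey, stimulated libraries in orange, circles and squares for the replicates and short lines for the group means. Genes from Fos to Rora were lower after stimulation, genes from Egr2 to Il13 were higher, and Foxp3 and Ikzf2 overlapped. Il2, Ccl3 and Il13 were higher in stimulated replicate 1 than in replicate 2.

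Genes of quiescent and naive T cells fell broadly. Of 32 tested members 26 were called lower and 1 higher, with a median log2 fold change of -1.32 (-0.80 at equal totals, where 18 were called lower), and 17 to 19 were called lower with a WT library left out. Tsc22d3 (GILZ), a glucocorticoid- and FOXO-dependent gene, had 1215 and 1069 normalized counts without stimulation and 65.5 and 75.9 after it (log2 fold change -4.00, SE 0.29, limma adjusted p = 0.000118). Foxo1, the transcription factor that maintains the resting state, had 10902 and 11083 against 3398 and 3493 (log2 fold change -1.67). The antiproliferative gene Tob1, the PI3K inhibitor Pik3ip1 and Tcf7 (TCF-1) fell too, at log2 fold changes of -3.06, -2.79 and -1.08, the last not called at equal totals (-0.56). Bach2, a repressor that preserves naive Treg cells, had 2514 and 2477 against 2529 and 2749 and was not called, and Slfn2 was the member called higher (log2 fold change 0.95).

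Receptors that route T cells through lymphoid organs were part of this fall. S1pr1, needed for exit into lymph, had 6141 and 4991 normalized counts against 645 and 829 (log2 fold change -2.92, SE 0.44, limma adjusted p = 0.00237), and its activator Klf2 had 745 and 599.7 against 124 and 185. Ccr7, the lymph node homing receptor, had 7052 and 5939.8 against 1365 and 1128, and Cxcr4 had 2288 and 1923 against 224 and 183. Among 20 tested chemokine receptors and egress genes, 4 were called lower and 0 higher by limma, edgeR called 4 and DESeq2 8 lower with 0 higher, and 1 had an unadjusted p under 0.05 upward. At equal totals 3 were called higher and 3 lower, with a median of 0.08 in place of -0.44, and 2 to 3 were called lower with a WT library left out.

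The TCR signalling machinery itself was lower: 20 of 34 tested genes were called lower and 0 higher by limma (0 higher by edgeR and DESeq2, and 1 higher at an unadjusted p under 0.05), with a median of -0.91 as deposited and -0.39 at equal totals, where 8 were called lower and 1 higher. With a WT library left out 9 to 10 were called lower. Dgka, the diacylglycerol kinase that damps Ras activation, had 8851 and 8732 normalized counts against 2403 and 3049 (log2 fold change -1.70). Bcl10, which carries the signal to NF-kB, had a log2 fold change of -1.82, and Cd4 of -1.0. Cd4 was not called at equal totals (-0.48), with or without mitochondrially encoded genes in them, after quantile normalization (-0.48), or without unstimulated replicate 3 (-0.86), stimulated replicate 1 (-0.96) or stimulated replicate 2 (-1.03). Cd3e (log2 fold change -0.27) was not called, and its value was 0.25 at equal totals. In the list of STIM, ORAI, calcineurin and NFAT genes 5 of 19 were called lower and 1 higher (median -0.23), a balance that turned to 3 lower and 5 higher at equal totals (median 0.29), and 2 to 4 were called lower with a WT library left out. Stim1, the calcium sensor whose floxed gene these WT cells had kept, had 1139 and 1377 against 645 and 673, a change not called at equal totals (-0.41), and Orai2 had 412 and 425 against 137 and 158, whereas Rcan3, a calcineurin inhibitor, rose from 539.6 and 365 to 913 and 1393.

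Cytokine genes rose far. Of 28 tested cytokines 13 were called higher and 2 lower, with a median log2 fold change of 1.98 (2.49 at equal totals). Il2, the growth factor that Treg cells usually take from other T cells, had 17.3 and 17.7 normalized counts without stimulation and 1469.9 and 771 after it (log2 fold change 5.85, SE 0.89, limma adjusted p = 0.0025). Il13 had 4.32 and 2.95 against 313 and 94.9, Il17a 16.2 and 5.91 against 331 and 153, and Il4 4.32 and 8.86 against 164 and 72.9. These are the signature cytokines of type 2 and type 17 helper cells. Il9 had 2.16 and 0 against 182 and 53.9, and Csf2 (GM-CSF) 2.16 and 1.48 against 88.1 and 52.4. With 2 and 3 reads in the unstimulated libraries, the ratios were 94.1 (95% exact counting interval 25.8 to 780.2) for Il9 and 37.4 (12.6 to 183) for Csf2, and these intervals cover counting error only. Ifng, the type 1 cytokine, had 78.8 and 126 against 899 and 322 and missed the threshold (log2 fold change 2.42, SE 0.90, limma adjusted p = 0.0767).

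The window before Il2, at chr3:37125955-37126204 on the minus strand of GRCm38.p6, is shown because this gene is a textbook target of NFAT. Calcium entry, which the study addressed, activates NFAT in T cells, and NFAT activation was not measured in these libraries. Capitals mark the NFAT core GGAAAA on either strand, at -137 to -132 and at -48 to -43 from the listed start.
Il2: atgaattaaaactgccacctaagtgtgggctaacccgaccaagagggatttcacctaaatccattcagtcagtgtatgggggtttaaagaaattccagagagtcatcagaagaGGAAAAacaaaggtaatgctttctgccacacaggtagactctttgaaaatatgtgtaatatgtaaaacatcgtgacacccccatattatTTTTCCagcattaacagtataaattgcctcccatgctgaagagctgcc
This core stands in 20.6% of all promoters of the same length and in 7 of 24 cytokine windows, so that its presence is common.

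Some cytokines of the TNF family, and Lif of the IL-6 family, rose evenly in both stimulated libraries. Il6 itself was under the minimum mean, with 6.47 and 5.91 normalized counts against 6.24 and 3.80. Lta (lymphotoxin alpha) had 247 and 226 normalized counts against 2019 and 2266 (log2 fold change 3.17, SE 0.27, limma adjusted p = 0.000189), Tnf 269.8 and 241 against 970.3 and 1012, and Lif, which opposes type 17 differentiation, 87.4 and 51.7 against 886 and 819. The suppressive cytokines did not follow. Il10 had 885 and 923 against 779 and 870.1 (limma adjusted p = 0.815), and Ebi3, a subunit of IL-35, 86.3 and 79.8 against 39.0 and 59.2 (limma adjusted p = 0.541). Areg (amphiregulin), the tissue-repair factor made by Treg cells, fell from 1599 and 1477 to 238 and 218 (log2 fold change -2.75, SE 0.38).

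Chemokine ligands split. Of 15 tested 4 were called higher and 2 lower, with a median of 0.77 that was -0.39 without stimulated replicate 1, 2.55 without stimulated replicate 2 and 2.10 by edgeR and by DESeq2. Ccl3 and Ccl4, attractants of inflammatory cells, had 9.71 and 13.3 and 1.08 and 0 normalized counts without stimulation, and 917 and 264 and 422 and 121 after it. With 1 unstimulated read the ratio for Ccl4 was 432 (95% exact counting interval 77.3 to 17101). Ccl1, a ligand of Ccr8, had 5.40 and 0 against 169 and 80.5, and Ccl20, the ligand of Ccr6, 2.16 and 7.39 against 213 and 141. Cxcl10, an interferon-induced attractant of Cxcr3+ cells, went the other way, from 1581 and 1557 to 316 and 204 (log2 fold change -2.62, SE 0.32). Of the other genes with the largest increases, Tbkbp1, a TBK1 adaptor, had 4.32 and 2.95 against 147 and 129, Gad1, which makes GABA, 9.71 and 11.8 against 253 and 219, Pdgfa 4.32 and 8.86 against 99.0 and 144, and Pkib, an inhibitor of protein kinase A, 6.47 and 8.86 against 471 and 88.1.

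Several of these genes were unequal within the stimulated group in the same direction as the markers of other cells, with stimulated replicate 1 the higher. Without that library the log2 fold change was 5.38 for Il2, 4.39 for Il13 and 4.42 for Ccl3, all still called, as was Ccl4, whose ratio was then 194 (34.3 to 7694). It was 3.82 for Il17a and 3.38 for Pkib, which were then not called. Il9, Il5 and Csf2 lost their calls as well, at ratios of 43.2 (11.5 to 364), 26.8 (4.33 to 1106) and 28.0 (9.19 to 139). Csf2 was not called without any 1 of the 4 WT libraries, Il5 not without either unstimulated library, and Il9 and Il17a not without unstimulated replicate 4. Without stimulated replicate 1 the 13 cytokines called higher stayed over 1.5-fold higher in 13 of 13 cases, though fewer of them were called. Of all 3593 called genes 3548 stayed over 1.5-fold the same way without it, so the choice of called genes nearly sets this outcome. Xcl1, a chemokine of CD8 T and NK cells, had 387 in replicate 1 and 47.8 in replicate 2 against 46.4 and 31.0 without stimulation, a log2 fold change of 1.82 that was 0.33 without replicate 1. The part of other cells in these values was not tested.

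Interferon-inducible GTPases rose as a family. These large GTPases of the GBP and IRG groups defend cells against intracellular pathogens and answer mainly to interferon gamma. Of 17 tested 12 were called higher and 1 lower, with a median log2 fold change of 1.64 (2.16 at equal totals). Gbp2 had 671 and 635 normalized counts against 5504 and 6086 (log2 fold change 3.15, SE 0.21, limma adjusted p = 7.2e-05), and Iigp1 398 and 516 against 6029 and 5414 (log2 fold change 3.65). Irgm1 had 384 and 339.8 against 2722 and 2478, Igtp 1624 and 1743 against 5409.6 and 6118, and Ifi47 1236 and 1198 against 5817 and 6105. Replicates were close for each, and the unstimulated libraries lay well below. Tgtp1 and its near-identical copy Tgtp2, whose reads may be split between them, rose by 3.22 and 1.64 on the log2 scale, and Gbp9 was the member called lower (log2 fold change -0.76, not called at equal totals, -0.24).

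These members are shown because 9 of the 10 GTPase genes with a window hold the letters of the ISRE, TTTCNNTTTC, against 3.04% of all promoters of the same length, and 3.40% of 1117 windows of genes called higher. Ifi47 has no match in its 250 bases. Irgm1 lies at chr11:48871421-48871670 on the minus strand, Igtp at chr11:58199306-58199555 on the plus strand and Gbp2 at chr3:142620413-142620662 on the plus strand, and capitals mark the motifs listed for Fos.
Irgm1: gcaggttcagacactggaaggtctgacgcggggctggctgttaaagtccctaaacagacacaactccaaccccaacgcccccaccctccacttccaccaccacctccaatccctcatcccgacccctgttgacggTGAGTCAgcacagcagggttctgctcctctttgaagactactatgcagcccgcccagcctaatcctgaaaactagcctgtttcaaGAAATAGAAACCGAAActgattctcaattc
Igtp: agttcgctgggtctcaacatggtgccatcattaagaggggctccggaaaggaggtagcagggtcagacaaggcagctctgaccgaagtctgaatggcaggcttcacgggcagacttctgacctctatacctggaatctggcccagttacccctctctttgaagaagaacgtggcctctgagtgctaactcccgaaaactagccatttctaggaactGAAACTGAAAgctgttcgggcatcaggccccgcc
Gbp2: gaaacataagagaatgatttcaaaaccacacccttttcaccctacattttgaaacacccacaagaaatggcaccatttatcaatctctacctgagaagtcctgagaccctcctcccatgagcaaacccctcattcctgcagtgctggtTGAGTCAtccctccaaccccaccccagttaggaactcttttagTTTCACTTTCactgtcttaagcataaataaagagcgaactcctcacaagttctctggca
The ISRE letters begin 30 bases before the listed start in Irgm1, where 2 overlapping matches fill -30 to -15, 34 bases before it in Igtp and 59 bases before it in Gbp2.

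Genes of the type I interferon response were more often called lower than higher. Of 35 tested 14 were called lower and 3 higher, with a median of -0.56 as deposited and -0.04 at equal totals, where 3 were called lower and 5 higher. With a WT library left out 2 to 4 were called lower. Mx1, an antiviral GTPase, had 83.1 and 75.3 normalized counts against 6.24 and 6.83 (log2 fold change -3.41), Mx2 59.4 and 82.7 against 6.24 and 7.59, and Rsad2 (viperin) 99.3 and 133 against 14.8 and 16.7. Usp18 and Bst2 were called higher, with log2 fold changes of 1.09 and 1.34. The receptor chain Ifnar1 fell from 5258 and 5096 to 1266 and 1382. Socs1, an inhibitor of these receptors, rose from 51.8 and 42.8 to 369 and 440.4 (log2 fold change 3.07, SE 0.37).

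Transcription factors of effector T cells changed in both directions, with 4 of 37 tested called higher (10.8%, against 10.2% of all genes) and 10 lower. At equal totals 7 were called higher and 5 lower, and 4 to 5 were called lower with a WT library left out. Irf8 had 263 and 235 normalized counts against 2682 and 2531 (log2 fold change 3.38, SE 0.33, limma adjusted p = 0.000398), Tbx21 (T-bet), the type 1 master factor, 39.9 and 42.8 against 528 and 467, and Irf4, required for effector Treg cells, 3543 and 3498 against 12882 and 11469. Myb was the fourth (log2 fold change 1.06). Rora had 24477 and 25307 against 1775 and 1721 (log2 fold change -3.83, SE 0.49), Bhlhe40 15408 and 14558 against 1676 and 1057, and Bcl6, the factor of follicular T cells, 1345 and 1483 against 147 and 98.0.

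Among receptors and surface molecules the IL-2 receptor chain led. Il2ra (CD25), on which these cells were sorted before culture, had 11360.3 and 10408 normalized counts against 42365 and 50119 (log2 fold change 2.08, SE 0.19, limma adjusted p = 0.000251), the largest gain in normalized counts of any called gene. Socs2, a target of STAT5, rose by 2.37 on the log2 scale. Il12rb1 and Il12rb2, the chains of the IL-12 receptor, had 119.8 and 85.7 against 873 and 976, and 66.9 and 78.3 against 371 and 314. By contrast 9 of 30 tested cytokine receptors were called lower and 4 higher (6 and 6 at equal totals, and 4 to 6 lower with a WT library left out), with Il7r at a log2 fold change of -1.96 and Il17ra at -1.79, and the kinase Jak2 was lower at -2.18. Of 32 Treg identity genes 7 were called higher and 4 lower (median 0.12), and at equal totals 13 and 2 (median 0.64). With a WT library left out 4 were called higher and 2 lower. Gpr83 rose from 771 and 635 to 2612 and 4056, and the costimulators Tnfrsf9 (4-1BB) and Tnfrsf4 (OX40) by 1.15 and 1.11 on the log2 scale, while Nrp1, Itgae, Areg and the maturation marker Cd83 fell, although Nrp1 (-0.49) and Itgae (-0.85) were not called at equal totals. Ctla4 had 37403 and 35119 against 17476 and 21926 and was not called (limma adjusted p = 0.105). The inhibitory receptor Havcr2 (TIM-3) was lower and the inhibitory ligand Cd200 higher, at log2 fold changes of -2.38 and 1.97.

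Growth genes rose, among them Myc, the transcription factor that drives biomass in activated T cells. Myc had 1128 and 1077 normalized counts against 4677 and 5418 (log2 fold change 2.19, SE 0.25, limma adjusted p = 0.000732). The repressors that compete with it for MAX, Mxd4, Mxi1 and Mnt, had log2 fold changes of -2.95, -2.84 and -2.66. Of 57 ribosome biogenesis genes 30 were called higher and 0 lower in limma, with a median of 0.97 (1.49 at equal totals). Nhp2, a component of H/ACA ribonucleoproteins, had 267 and 192 against 1192 and 1166 (log2 fold change 2.38), Wdr12, which matures the large subunit, 315 and 307 against 1325 and 1238, and Polr1b, the second largest subunit of RNA polymerase I, 175 and 185 against 621 and 642. Pa2g4, a growth regulator found in nucleoli, was among the largest gains in counts, from 3977 and 3073 to 8048 and 7761.

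Genes of protein synthesis and breakdown were among those that rose. Of 79 cytosolic ribosomal protein genes 20 were called higher and 0 lower in limma (median 0.45), of 20 cytosolic tRNA synthetases 6 and 0 (median 0.41), and of 40 translation factors 9 and 4. With a WT library left out 2 tRNA synthetases and 4 translation factors were called higher. Of 26 ER chaperone and unfolded protein response genes 3 were called higher and 6 lower (median 0.02), 12 and 4 at equal totals, and 2 to 3 lower with a WT library left out. Eef1e1, a scaffold of the synthetase complex, had 111 and 127 normalized counts against 574 and 629, and Eif2b3, a subunit of the exchange factor of eIF2, 169 and 152 against 752 and 865. Of 38 proteasome genes 18 were called higher and 0 lower in limma (median 0.71). Their leading members were the assembly chaperone Psmg1 (log2 fold change 2.01), the activator subunit Psme2 (1.84) and the immunoproteasome subunit Psmb9 (1.78), the last pair known as interferon-gamma targets. Ribosomal protein genes have many processed copies in the genome, so their counts are uncertain. For ribosome biogenesis, ribosomal protein and proteasome genes, 0 were lower by edgeR, by DESeq2 or at an unadjusted p under 0.05, and 1 tRNA synthetase was lower by DESeq2 and at an unadjusted p.

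The tested mitochondrial genes diverged by genome. Of 73 nuclear-encoded subunits of the respiratory chain 31 were called higher and 1 lower (median 0.75, 1.27 at equal totals), such as Atp5e of ATP synthase, with 351 and 233 normalized counts against 1052 and 1309, and Uqcr11 of complex III, with 52.9 and 34.0 against 198 and 188. Cox7a2l, a factor in supercomplex assembly, was the member called lower (log2 fold change -1.09, not called at equal totals, -0.57). Of 13 listed mitochondrially encoded mRNAs 7 were tested. The genes mt-Co2, mt-Co3, mt-Atp6, mt-Atp8 and mt-Nd4l had 0 counts in all 8 libraries, and mt-Nd3 had at most 1.08 normalized counts. Of the 7 tested 4 were called lower and 0 higher by limma, with 0 higher also by edgeR, by DESeq2 and at an unadjusted p under 0.05. The list held mt-Cytb of complex III, with 70359 and 66474 against 34511 and 35072. The mitochondrial ribosomal RNA mt-Rnr1 had 1207316 and 1160031 against 534918 and 595788 (log2 fold change -1.07, SE 0.28, limma adjusted p = 0.020). At equal totals 0 of the 7 were called, as with any WT library left out, and the changes of mt-Cytb and mt-Rnr1 were -0.45 and -0.55.

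The response varied with transcript length, which bears on these lists of short genes. Exonic lengths were found for 12956 of the 15419 tested genes (84.0%). The median log2 fold change was 0.23 in the shortest of 5 equal groups of genes (up to 1742 bases) and -0.18 in the longest (from 5962 bases), and 12.7% and 8.57% of their members were called higher and 7.48% and 20.1% lower. Between replicates the medians over the same groups ran from -0.12 to 0.02 for unstimulated replicate 4 over 3 and from 0.00 to 0.04 for stimulated replicate 2 over 1. After the length trend of each library was taken out, the median of the respiratory chain was 0.57 with 24 genes called higher, that of the proteasome 0.58 with 14, that of ribosomal proteins 0.30 with 12 and that of ribosome biogenesis 0.96 with 30. With each WT library left out in turn, 12 to 19 ribosome biogenesis, 5 to 8 proteasome and 5 to 15 respiratory chain genes were called higher. Ribosomal protein genes called higher then numbered 0 without unstimulated replicate 4 or stimulated replicate 2, 4 without stimulated replicate 1 and 10 without unstimulated replicate 3. The part of RNA quality or library preparation in this trend was not tested.

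**Figure D3:**
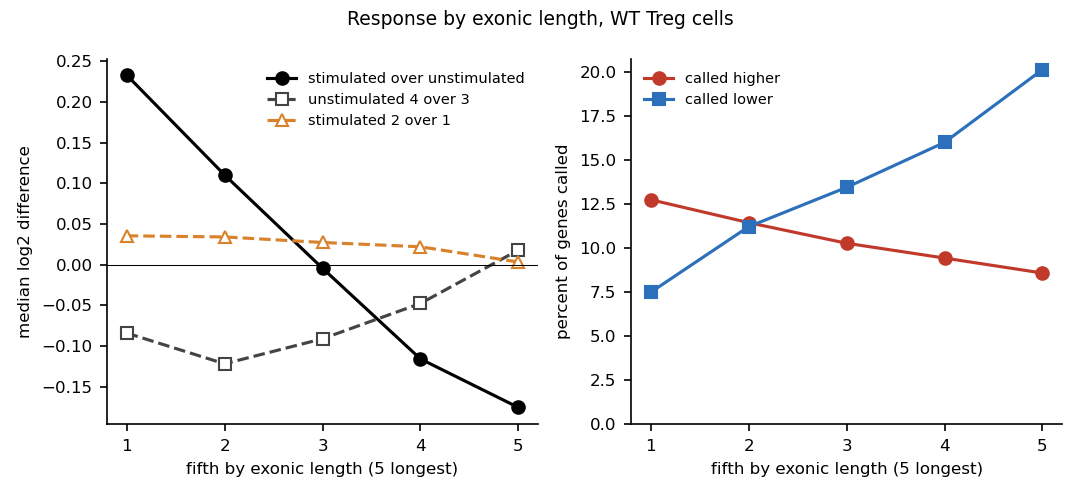
The left panel shows the median log2 difference in 5 groups of 12956 genes ordered by exonic length, for stimulated over unstimulated WT cells and for the replicates of each group, and the right panel shows the percent of genes called higher and lower in each group. The stimulated over unstimulated median runs from 0.23 to -0.18 and the share called lower from 7.48% to 20.1%.

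Biosynthetic genes were more often called higher than lower. Of 32 genes of nucleotide and polyamine synthesis 12 were called higher and 3 lower (median 0.47), and 3 to 6 higher with a WT library left out. Srm (spermidine synthase) had 204 and 162 normalized counts against 950.1 and 913 (log2 fold change 2.35), Nme1, a nucleoside diphosphate kinase, 306 and 209.8 against 852 and 1075, and Cad, which starts pyrimidine synthesis, 681 and 429.9 against 1697 and 1638. Odc1, the first enzyme of polyamine synthesis, fell from 10031 and 8933 to 2611 and 2789.6. In the list of ATF4, serine and one-carbon genes 8 of 22 were called higher and 2 lower (2 to 5 higher with a WT library left out), led by the mitochondrial enzyme Shmt2, with 419.8 and 291 against 1301 and 1404.

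Of 39 cholesterol and fatty acid genes 10 were called higher and 2 lower (median 0.47), and 4 to 7 higher with a WT library left out. Sqle, the epoxidase of the sterol pathway, rose from 318 and 332 to 843 and 956, and Fasn, the fatty acid synthase, from 816 and 639.6 to 1908 and 2007. The members called lower were the sterol exporters Abcg1, from 2645 and 2473 to 274 and 219 (log2 fold change -3.38, SE 0.33, limma adjusted p = 0.000364), and Abca1. Glycolysis changed less, with 4 of 28 genes called higher and 2 lower (median -0.03, 0.49 at equal totals), and 0 to 2 higher with a WT library left out. Aldoa (aldolase A) and Ldha (lactate dehydrogenase A) rose by 1.30 and 0.99 on the log2 scale, and the glucose transporter Slc2a3 fell from 1242 and 1253 to 437 and 524.

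Cell cycle genes changed in both directions. Of 31 genes in the list of MYC, G1 cyclins and CDK inhibitors 6 were called higher and 9 lower (median 0.07), 13 and 5 at equal totals, and 1 to 3 higher and 6 to 7 lower with a WT library left out. Ccnd2 (cyclin D2) had 7689 and 7040.3 normalized counts against 14738 and 15281 (log2 fold change 1.03, SE 0.19), its partner Cdk4 705 and 551 against 1539 and 1708, and the inhibitor Cdkn1b (p27) fell by 1.30 on the log2 scale. Of 41 DNA replication genes 7 were called higher by limma and 0 lower by limma, edgeR, DESeq2 or at an unadjusted p under 0.05 (median 0.38, with 1 to 2 higher with a WT library left out), among them the helicase-nuclease Dna2 and the helicase subunit Mcm2. Of 47 mitosis genes 2 were called higher and 3 lower (median 0.12, and 0 higher with a WT library left out), shares of 4.3% and 6.4% that lie below the 10.2% and 13.1% of all genes. The proliferation marker Mki67 had 17091 and 13862 against 8559.9 and 7417 and was not called (limma adjusted p = 0.256). Death genes split, with Pmaip1 (Noxa) and Bcl2l11 (Bim) at log2 fold changes of -3.05 and -2.21 and Bax at 1.41.

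**Figure D4:**
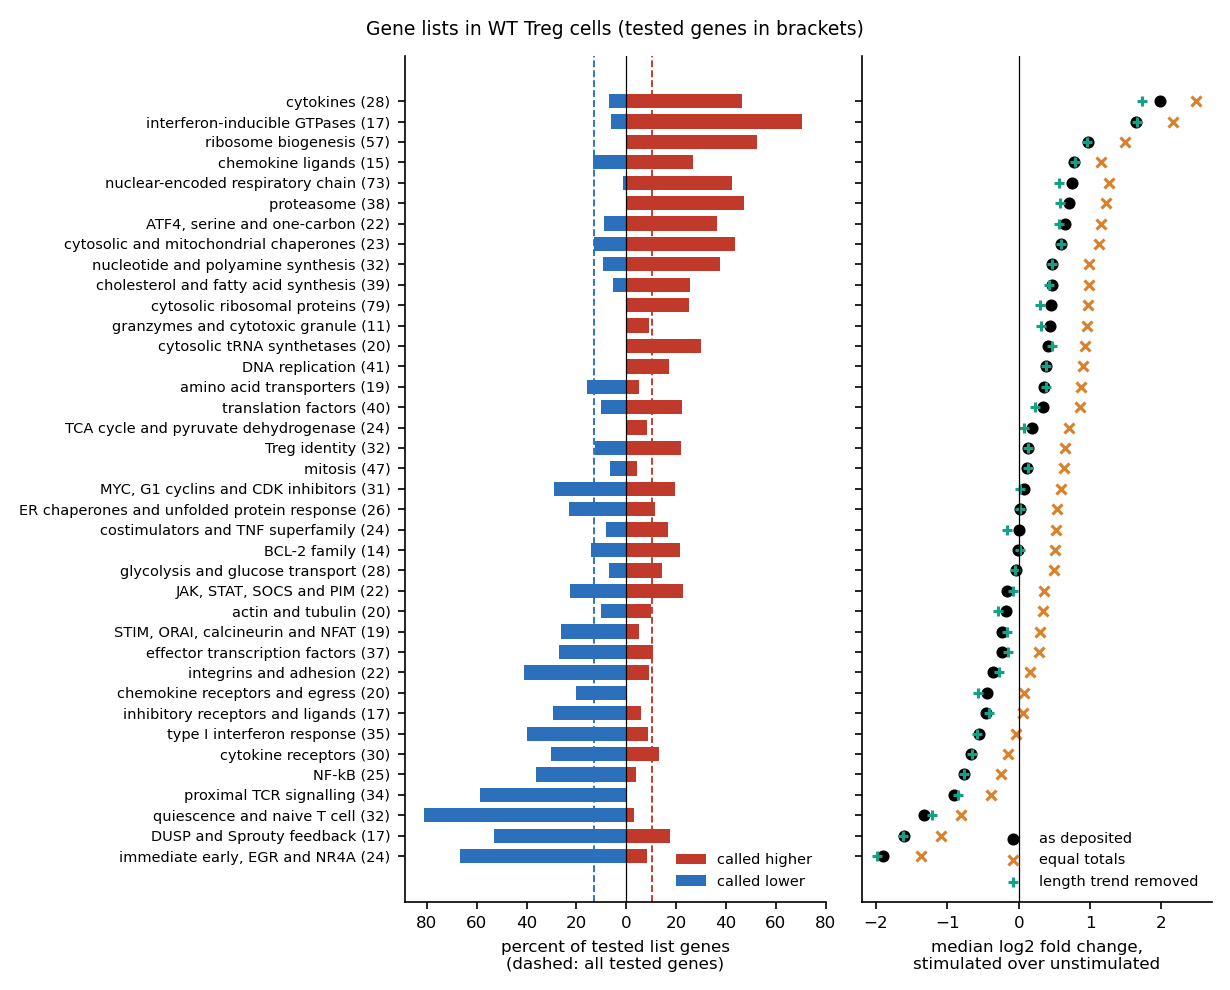
Percent of tested genes called higher (red) or lower (blue) in each gene list (left), with dashed lines at 10.2% and 13.1% for all tested genes, and the median log2 fold change of each list (right) as deposited, at equal totals and with the length trend removed. Immediate early genes and quiescence genes lie at the bottom and cytokines, GTPases and ribosome biogenesis at the top, and equal totals move every list to the right.

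The largest drops in counts, apart from mitochondrial RNA and Tnfaip3, were of abundant transcripts, several of them nuclear or tied to splicing. Malat1, a nuclear long noncoding RNA, had 219965 and 254137 normalized counts against 104799.6 and 99164 (log2 fold change -1.21). Clk1, a kinase of splicing factors, had 31266 and 36499.9 against 5493 and 4478 (log2 fold change -2.77, SE 0.24), the chromatin remodeller Chd2 28026 and 31374 against 4239 and 4111, the RNA helicase Ddx5 39821 and 40222 against 15602 and 15275, and Macf1, a cytoskeletal linker, 43065 and 48137 against 14913 and 15904. The splicing regulator Mbnl1 and the phosphatase Ptprc (CD45) fell by 1.04 and 0.89, changes that were not called at equal totals (-0.52 and -0.37). Against this trend the nuclear noncoding RNA Kcnq1ot1 rose from 2831 and 4565 to 9163 and 8704, the Polycomb gene Phc3 from 6034 and 6585 to 10261 and 11199.5, and Nabp1, a single-stranded DNA binding protein, from 3559 and 4256 to 10165 and 9375.

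Libraries labelled Stim1/2-deficient share no library with the WT groups but may come from the same pools of mice and share lanes with them. For each gene both comparisons used the same estimate of the spread, taken from all 8 libraries, so their calls are not independent. The labelled libraries gave 1997 genes called higher (13.0%) and 1855 called lower (12%) after stimulation. Of the 1580 genes called higher in WT cells 1051 were called higher there as well, 66.5% of the WT list and 52.6% of the other, and of the 2013 called lower 1168 were, 58.0% and 63.0%. The genes called higher in WT cells had a median log2 fold change of 1.36 in WT and 1.21 in labelled libraries, and those called lower -1.40 and -1.05. Both sets were chosen by their WT change, which favours larger values in WT. These medians therefore do not compare the strength of the responses. Labelled unstimulated replicate 1 held 62.9 normalized counts of the dendritic cell marker Clec9a and 41.9 of the myeloid marker Cd14. Replicate 2 held 5.34 and 4.01. The median log2 fold change of 12 tested myeloid markers was -5.15 in labelled libraries. It was -1.39 for 15 B cell markers and -0.16 for 10 CD8 T and NK cell markers. The part of other cells in the labelled calls was not tested. The difference of the responses was called for 0 of 15419 genes by limma, the lowest adjusted p being 0.109, while 1257 genes had an unadjusted p under 0.05 (8.15%).

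That lowest p belonged to Cxcl10, which was 186 and 228 normalized counts in unstimulated and 567 and 306 in stimulated libraries labelled Stim1/2-deficient. It was 1 of 6 genes called in opposite directions, named here after their values were seen. The others were Cd83, Map3k8, Stx11 and Trat1, lower in WT and higher in labelled libraries, and Col14a1, higher in WT and lower in labelled libraries. Col14a1 was at the floor in unstimulated WT libraries, with 3.24 and 2.95 against 38.2 and 17.5. In labelled libraries it had 193 and 34.7, unequal between replicates, against 11.9 and 16.0 (limma adjusted p of the difference = 0.506). Cd83, with 2989 and 2668 against 1074 and 697 in WT cells, had 308 and 455 against 959 and 619.7 in labelled ones (limma adjusted p of the difference = 0.170). For Il2, Fos and Gbp2 the log2 fold changes were 5.85, -5.48 and 3.15 in WT and 6.24, -4.39 and 4.78 in labelled libraries.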

How the data were processed

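RNA of the 4 WT libraries (2 stimulated, 2 unstimulated) and of 4 libraries labelled Stim1/2-deficient was sequenced as single reads. The methods state a TruSeq v2 kit, alignment to NCBIM37 with Bowtie, removal of PCR duplicates with Picard, counting with HTSeq and testing with DESeq2, whereas the submitters' notes name mm10, STAR 2.7, bcl2fastq 1.8.4, DESeq2 and a stranded kit, so both are given. The deposited values are a signal: the authors scaled the read count of each gene by a single size factor for the library. Whole reads were recovered for 100% of values (within 0.02 read), and 1 read equals 0.759 to 1.48 normalized counts. mt-Rnr2 held 1406479 to 3282964 reads in a library, over an exonic length of 1582 bases with 3164 read starts on both strands, so these counts hold more than 1 read for a start. Exact (Clopper-Pearson) intervals on read ratios and floors of 3 reads cover counting error only.

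Log2(value + 1) of the 15419 genes with a mean of at least 10 was fitted with limma 3.58.1 in R 4.3.3 (lmFit, eBayes with trend) in 1 model of 4 groups and 8 libraries, 2-sided, with Benjamini-Hochberg adjustment over all genes. Lane is bound to stimulation and could not be a term. Genes were named by a rule: among called genes with groups apart and a higher mean of at least 100, the 12 largest fold changes and the 10 largest count differences in each direction, leaving out clone names and receptor segments, and members of gene lists, of which the examples were picked with their values known. The members and lists were chosen with earlier results of these data known, and lists were described by counts and medians without a test. Alternatives were other pseudocounts (0.1, 5), minimum means, scalings, thresholds, edgeR 4.0.16 and DESeq2 1.42.0 on recovered reads, the 4 WT libraries alone, and each WT library left out. Removal of the length trend (20 bins, GENCODE M1 exons by symbol and RefSeq synonyms) was chosen after seeing the data. The fits were tested on simulated data. Promoter windows are from RefSeq on GRCm38.p6 (9882 tested genes matched by symbol), a build other than NCBIM37.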

Additional observations from a re-analysis of the deposited data

How the results depend on the processing

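Genes called higher and lower numbered 1580 and 2013. Leaving out each WT library in turn gave 344 to 505 higher and 580 to 843 lower calls, with the lone library assumed to vary like the other groups. Of the 3593 called genes 3538 to 3555 stayed over 1.5-fold the same way in these fits and 0 changed sign. Equal totals gave 4258 and 974 calls, equal totals without mitochondrially encoded genes 2913 and 1208, and an unadjusted p 2565 and 2849. Other pseudocounts, minimum means, upper quartiles, quantile normalization, edgeR (1528 and 1911), DESeq2 (1671 and 2256), the 4 WT libraries alone and removal of the length trend left the direction of the named called genes as it was, except that quantile normalization set Malat1 and mt-Rnr1 to 0.0, since the top ranks are made equal in every library. The 4 WT libraries alone gave 2319 and 2746 calls. No paired analysis was possible because the unstimulated WT replicates are numbered 3 and 4 and the stimulated ones 1 and 2.

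Genes that were not called could change sign. Cd3e was 0.25 at equal totals, 0.09 without mitochondrially encoded genes and 0.13 after quantile normalization, and Il10 was 0.38, 0.22 and 0.01. mt-Rnr2 was 0.0 after quantile normalization. With each WT library left out in turn, Cd8a ran from -0.97 to 2.74, Ms4a1 from -0.53 to 3.20 and Gzma from -0.12 to 3.03, lowest without stimulated replicate 1, and Egr1 from -0.16 to 0.31, Foxp3 from -0.08 to 0.40 and Ikzf2 from -0.03 to 0.10, lowest without stimulated replicate 2. The cause was not tested.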
